A study of Mus musculus with 6 samples.

Results

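The nuclear receptors LXRα and LXRβ, a shared partner receptor, and genes of cholesterol efflux and phospholipid remodelling were followed in unstimulated mouse bone marrow-derived macrophages with and without the enzyme ATP citrate lyase (Acly). The group held 10 of the 24562 genes in the deposited table of read counts, and it was chosen by function: the receptors *Nr1h2* and *Nr1h3*, the partner *Rxra*, the efflux genes *Abca1*, *Abcg1*, *Apoe* and *Pltp*, the ligase gene *Mylip*, the phospholipid enzyme gene *Lpcat3* and the lipoprotein receptor gene *Scarb1*. All 10 genes were found and all 10 passed the filter on low counts. The choice was made with earlier results of these data known. From the same data the study had reported *Abca1*, *Abcg1*, *Apoe* and *Mylip* as decreased and *Scarb1* as increased without Acly. The control libraries came, by the series' labels, from female Cre-negative mice with loxP-flanked *Acly* alleles (Acly fl/fl), and the Acly M-KO libraries from female Acly fl/fl mice with LysMcre, in which Cre is driven from the *Lyz2* locus and is therefore active in myeloid cells in general, neutrophils included. Both groups were naive cells, grown out of bone marrow with L929-conditioned medium, and the mice were young adults on a C57BL/6J background. The study's general description of its culture work names both sexes. There were 3 libraries per genotype. Since the replicates are described as technical replicates from pooled mice, the errors and p-values below measure the spread between these libraries and not between mice.

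LXRs are transcription factors that are switched on by oxidised sterols and by intermediates of cholesterol synthesis, and that bind DNA as a pair with an RXR. In macrophages they are best known for raising the genes that move cholesterol out of the cell: ABCA1 and ABCG1 hand cholesterol and phospholipid to apolipoproteins and lipoprotein particles, apolipoprotein E takes lipid up, and the phospholipid transfer protein reshapes the particles. Other classical targets limit the uptake of lipoproteins, make fatty acids or remodel membrane phospholipids.

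The count over 1 transcript per gene was between 11120034 and 13598887 in 5 libraries and 25814853 in Acly M-KO replicate 2. The targeted gene *Acly* had 229.7 ± 8.18 CPM (counts scaled to library size, with TMM factors) in control libraries and 96.8 ± 3.06 CPM in those of Acly M-KO (mean ± SD of 3 libraries), and passed the test. Of the 8 macrophage markers, 3 (37.5%, against 5.65% of all tested genes) were lower in Acly M-KO libraries, *Lyz2* (log2 fold change -1.05), which the Cre insertion interrupts, *Mertk* (-0.67) and *Csf1r* (-0.48), while *Adgre1* (0.07), *Cd68* (0.01) and *Itgam* (0.00) did not pass. The summed level of the 8 markers was 21672 to 22659 CPM in control and 12656 to 15295 CPM in Acly M-KO libraries. Most of the fall in this sum lay in *Lyz2* alone, whose mean went from 13305 (control) to 6437 CPM (Acly M-KO). Neutrophil markers summed to between 27.5 and 31.1 CPM in control and between 28.7 and 30.4 CPM in Acly M-KO libraries. Dendritic cell, lymphocyte, fibroblast and erythroid markers each summed to at most 1.36 CPM in any library, with *Cd3e*, *Col3a1*, *Pdgfra*, *Hba-a1* and *Hbb-bs* at 0 in all 6. The part of these marker levels in the results below was not tested. In such bulk RNA, fewer cells of a kind and less RNA per cell cannot be told apart.

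The genes of the exporters, the acceptor, the transfer protein and the ligase were lower in macrophages without Acly, those of the remodelling enzyme and the lipoprotein receptor were higher, and neither LXR gene passed the test. Of the 10 genes, 5 were lower (*Apoe*, *Abca1*, *Abcg1*, *Pltp* and *Mylip*) and 2 were higher (*Scarb1* and *Lpcat3*) at an adjusted p of at most 0.05 in edgeR's quasi-likelihood test. The other 3 were the receptor genes *Nr1h2*, *Nr1h3* and *Rxra*. Among all 11470 genes tested, 12.3% passed the same threshold, 5.65% lower and 6.7% higher. The median log2 fold change (Acly M-KO over control) was -0.50 over the 10 genes and 0.00 over all genes tested. In 8 of the 10 genes the 3 libraries of one genotype were all above those of the other, with Acly M-KO below in 6 and above in 2. Such a separation was seen in 32.8% of all tested genes (16.6% below, 16.3% above). Without Acly M-KO replicate 1 or 2, 6 of the 10 genes were lower, *Rxra* being the one added. Only 1 was higher without control replicate 1, 2 or 3 or Acly M-KO replicate 3, since *Lpcat3* then missed the threshold.

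**Figure D1:**
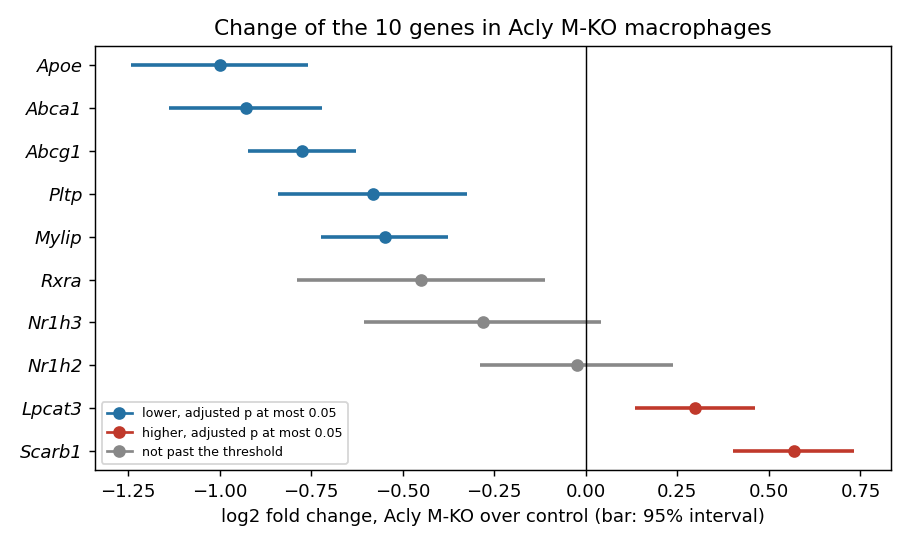
Log2 fold change of each of the 10 genes in Acly M-KO over control macrophages (x axis), with the 95% interval from edgeR as a bar. *Apoe*, *Abca1*, *Abcg1*, *Pltp* and *Mylip* lie to the left of 0 and *Lpcat3* and *Scarb1* to the right, whereas *Rxra*, *Nr1h3* and *Nr1h2*, in grey, missed the threshold.

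Promoter sequences are given for members that moved in either direction, so that their letters can be read beside the changes. RefSeq promoters (GRCm38.p6, 250 bases before to 50 after a start site) were matched for 8 of the 10 genes and comprised 12 start sites. *Abcg1* and *Scarb1* had no entry. Each sequence is written 5′ to 3′ on the strand of its gene, and capitals mark matches on either strand to the GC box GGGCGG, the box CCAAT, the E-box CACGTG, and a DR4 with up to 3 mismatches. A DR4, the element that an LXR and RXR pair is known to bind, is 2 copies of AGGTCA with 4 bases between them. *Abca1* (chr4:53159846-53160145, minus strand), *Apoe* (chr7:19699139-19699438, minus strand), *Pltp* (chr2:164857659-164857958, minus strand) and *Mylip* (chr13:45389492-45389791, plus strand) are genes that fell, and *Lpcat3* (chr6:124662854-124663153, plus strand) is one that rose.
Abca1: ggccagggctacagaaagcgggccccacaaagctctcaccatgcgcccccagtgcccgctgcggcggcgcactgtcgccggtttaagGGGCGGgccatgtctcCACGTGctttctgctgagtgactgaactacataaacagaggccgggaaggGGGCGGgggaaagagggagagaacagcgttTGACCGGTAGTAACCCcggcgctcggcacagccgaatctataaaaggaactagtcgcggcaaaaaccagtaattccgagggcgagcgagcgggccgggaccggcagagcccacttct
Apoe: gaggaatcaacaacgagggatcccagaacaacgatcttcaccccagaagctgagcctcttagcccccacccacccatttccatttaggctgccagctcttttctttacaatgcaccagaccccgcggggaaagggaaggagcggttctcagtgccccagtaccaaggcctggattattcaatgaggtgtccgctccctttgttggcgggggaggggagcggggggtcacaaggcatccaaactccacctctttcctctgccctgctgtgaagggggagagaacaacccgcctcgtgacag
Pltp: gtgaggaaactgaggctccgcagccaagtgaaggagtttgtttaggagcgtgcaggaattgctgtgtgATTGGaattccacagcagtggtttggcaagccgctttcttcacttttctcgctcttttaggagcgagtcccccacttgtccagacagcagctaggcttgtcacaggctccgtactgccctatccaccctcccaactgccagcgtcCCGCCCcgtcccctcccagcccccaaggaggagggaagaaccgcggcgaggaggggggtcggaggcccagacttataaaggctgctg
Mylip: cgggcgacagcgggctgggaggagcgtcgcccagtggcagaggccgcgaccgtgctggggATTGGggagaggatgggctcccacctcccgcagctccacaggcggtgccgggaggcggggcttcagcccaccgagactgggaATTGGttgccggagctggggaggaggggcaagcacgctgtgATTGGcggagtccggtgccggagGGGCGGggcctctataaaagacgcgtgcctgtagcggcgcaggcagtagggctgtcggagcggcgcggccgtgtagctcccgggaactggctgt
Lpcat3: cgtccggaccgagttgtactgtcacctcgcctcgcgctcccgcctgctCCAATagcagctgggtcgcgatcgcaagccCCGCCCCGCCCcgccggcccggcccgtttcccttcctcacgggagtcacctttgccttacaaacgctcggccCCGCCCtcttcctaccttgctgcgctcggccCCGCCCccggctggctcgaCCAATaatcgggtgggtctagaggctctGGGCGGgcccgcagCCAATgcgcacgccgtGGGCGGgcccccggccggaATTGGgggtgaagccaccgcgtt

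With at most 2 mismatches over its 12 fixed letters, a DR4 was found in 0 of the 12 promoters of these genes, against 3.02% of the 32851 promoters in the table. At 3 mismatches, *Abca1* held one on the strand opposite to the one written, 67 to 52 bases before its start, and *Rxra* held one at its second start site, and 21.9% of all promoters held at least 1. The sterol element, TCAC and CCAC with 1 base between them, was found in 0 of the 12, against 1.24% of all promoters. The E-box was found in *Abca1* alone among the members (7.15% of all promoters). GC boxes stood in 5 of the 12 (35.7% of all), namely in *Abca1*, *Pltp*, *Mylip*, *Lpcat3* and *Rxra*, and the *Lpcat3* promoter had 6 of them. The CCAAT box was found in *Pltp*, *Mylip* and *Lpcat3* (37.4% of all promoters), with 4 in *Lpcat3* and 3 in *Mylip*. No matches of different motifs overlapped in these promoters. The *Apoe* promoter shown held none of the motifs searched. These letters describe the window only, and sites further away were not searched. Binding of an LXR was not tested at any site, and a search limited to 2 mismatches passes over matches such as the one in *Abca1*.

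The receptors were examined first, as the members on which the others are known to depend. *Nr1h2* (NM_009473, chromosome 7, 44549616 to 44553968 in mm10) encodes LXRβ. It was at 80.1, 74.8 and 73.9 CPM in the control libraries and at 79.0, 59.5 and 87.8 CPM in the Acly M-KO libraries, so the Acly M-KO libraries held both the lowest and the highest value. Its log2 fold change was -0.03 with a 95% interval of -0.29 to 0.24 (edgeR adjusted p = 0.922). The sign turned to 0.13 without Acly M-KO replicate 2 and to 0.01 without control replicate 1.

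*Nr1h3* (NM_013839, chromosome 2, 91184061 to 91202829) encodes LXRα, the isoform that is known to be restricted to metabolic tissues and macrophages. Its levels were 11, 14.4 and 13.0 CPM in control and 10.2, 9.5 and 12.3 CPM in Acly M-KO libraries, on 117 to 252 counts each. Its annotated exons share 34 of 2515 bases (1.35%) with *Gm13783* on the same strand. The groups overlapped, since Acly M-KO replicate 3 lay above control replicate 1. The log2 fold change of -0.28 had a 95% interval of -0.61 to 0.04 and did not pass (edgeR adjusted p = 0.250), and the interval holds a decrease of up to 0.61 as well as no change. *Nr1h3* was the least abundant of the 10 genes per transcript length, and per length *Nr1h2* was 5.92 ± 1.07 times as high in control and 6.89 ± 0.742 times as high in Acly M-KO libraries (SD, n = 3 each). The size of that ratio depended on how the level was computed, with control levels of 22.5 against 5.03 RPKM over all exon bases and of 149.8 against 12.9 RPKM with all transcripts added up.

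*Rxra* (NM_001290481, chromosome 2, 27676445 to 27763319), the gene of retinoid X receptor α, was at 136.0, 133.6 and 124.0 CPM in control. In Acly M-KO libraries it was at 111.7, 67.2 and 111.5 CPM. Every value of the Acly M-KO group was under the control range, and replicate 2 was far below the other two. The log2 fold change was -0.45 (95% interval -0.79 to -0.11), and edgeR's adjusted p of 0.0819 missed the threshold. Across 15 other ways of fitting, *Rxra* was past the threshold in 6, with an adjusted p between 0.00861 and 0.214. Without Acly M-KO replicate 2 the change was smaller, -0.23, with an adjusted p of 0.00861 in edgeR.

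**Figure D2:**
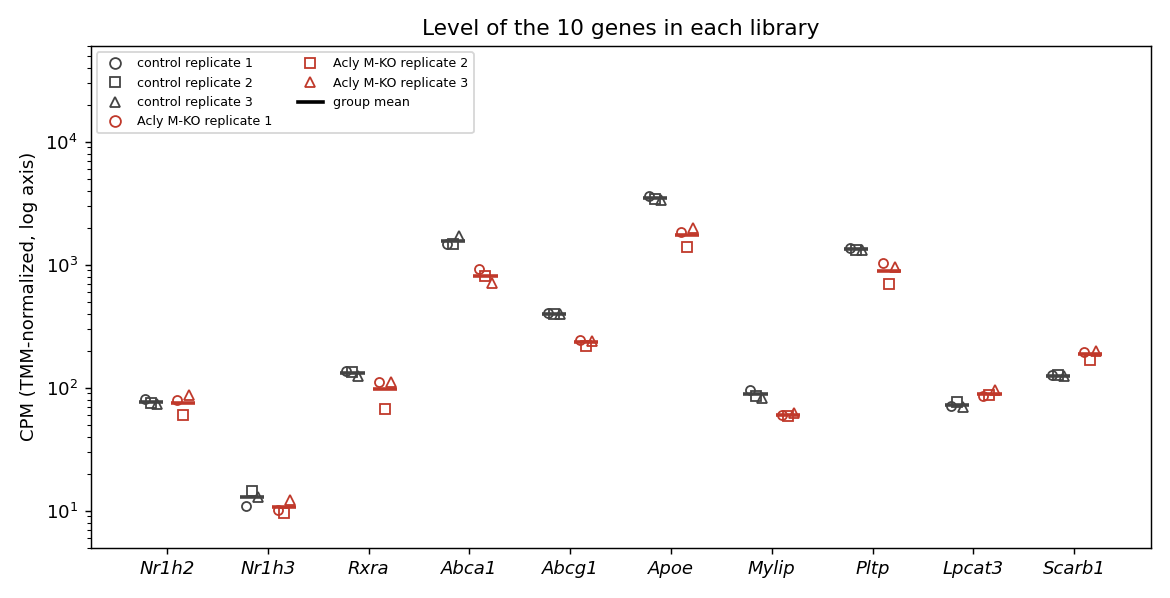
Level of each of the 10 genes in each of the 6 libraries, in CPM on a log axis, with control libraries in grey, Acly M-KO libraries in red, and a line in the group's colour at each group mean. The Acly M-KO libraries lie wholly below control for *Rxra*, *Abca1*, *Abcg1*, *Apoe*, *Mylip* and *Pltp*, wholly above for *Lpcat3* and *Scarb1*, and overlap with control for *Nr1h2* and *Nr1h3*.

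Both ATP-binding cassette exporters were lower. *Abca1* (NM_013454, chromosome 4, 53030789 to 53159988), whose protein loads lipid-poor apolipoprotein with cholesterol and phospholipid, was at 1469.5, 1483 and 1695 CPM in control and at 924.7, 806.2 and 710.6 CPM in Acly M-KO libraries. The highest Acly M-KO library was thus well under the lowest control library. This was a log2 fold change of -0.93 with a standard error of 0.096 and a 95% interval of -1.14 to -0.72 (edgeR adjusted p = 1.33e-04), or 47.5% lower. *Abca1* ranked 51 among all tested genes by p. Fits that left out 1 library gave between -1.04 and -0.84, all past the threshold.

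*Abcg1* (NM_009593, chromosome 17, 31057694 to 31117984), whose protein is known to pass cholesterol to mature lipoprotein particles, had the smallest standard error of the 5 lower genes. Its control libraries were at 402.0, 399.8 and 399.8 CPM, and its Acly M-KO libraries were at 245.2, 216.7 and 240.8 CPM. The fall was 41.6%, a log2 fold change of -0.78 (SE 0.067, 95% interval -0.92 to -0.63, edgeR adjusted p = 3.35e-05), and *Abcg1* ranked 33 by p. Left-out libraries moved it between -0.81 and -0.72. Within each library *Abca1* stood at a ratio per length of 2.20 ± 0.183 to *Abcg1* in control and of 1.98 ± 0.261 without Acly (SD, n = 3 each), and the ranges of this ratio overlapped.

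*Apoe* (NM_009696, chromosome 7, 19696244 to 19701310), which encodes the apolipoprotein that macrophages secrete as an acceptor of cholesterol, was the most abundant of the 10 genes and above 99.8% of all tested genes in mean CPM. It was at 3641, 3434 and 3336 CPM in control and at 1838, 1389.8 and 1979 CPM in Acly M-KO libraries. Its change was -1.0 on the log2 scale (SE 0.110, 95% interval -1.24 to -0.76, edgeR adjusted p = 2.26e-04). Without Acly M-KO replicate 2 the change was smaller than that of *Abca1*, -0.86 against -0.92. The lowest control library was far above the highest Acly M-KO library. The change was between -1.11 and -0.86 with 1 library left out, the smaller value being without Acly M-KO replicate 2.

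*Pltp* (NM_011125, chromosome 2, 164839518 to 164857708) encodes the phospholipid transfer protein. Its control libraries were close together at 1374, 1320.4 and 1320.7 CPM. Acly M-KO libraries were spread out at 1032, 692.4 and 959.1 CPM, with replicate 2 lowest, and all 3 were below control. The log2 fold change was -0.58 (SE 0.118, 95% interval -0.84 to -0.33, edgeR adjusted p = 0.00826). It was past the threshold with every library left out, with an adjusted p of at most 0.0419. In the annotation, 495 of the 2562 exon bases of *Pltp* (19.3%) are shared with *Ctsa*, which runs the other way, and the counting is described only as run with default settings, with no strand option named. *Ctsa*, a lysosomal protease gene, had 1788 to 1869 CPM in control and 1484 to 1763 CPM in Acly M-KO libraries and did not pass (log2 fold change -0.16).

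*Mylip* (NM_153789, chromosome 13, 45389742 to 45411940) encodes a ubiquitin ligase, also called IDOL, that is known to send lipoprotein receptors to degradation. It was at 96.1, 85.9 and 82.2 CPM in control and at 59.4, 58.8 and 62.6 CPM in Acly M-KO libraries. The Acly M-KO libraries lay close together, under the whole control group. The log2 fold change was -0.55 (SE 0.079, 95% interval -0.72 to -0.38, edgeR adjusted p = 0.00145), or 31.7% lower, and left-out libraries gave between -0.60 and -0.48.

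The other 2 genes past the threshold moved the opposite way. *Scarb1* (NM_016741, chromosome 5, 125277087 to 125341094) encodes SR-B1, the receptor for high-density lipoprotein, through which cholesterol can pass in and out of the cell. It was at 125.8, 125.9 and 124.4 CPM in control and at 193.2, 167.1 and 197.9 CPM in Acly M-KO libraries, so that even the lowest Acly M-KO library was above all control libraries. This was 48.2% higher, with a log2 fold change of 0.57 (SE 0.076, 95% interval 0.40 to 0.73, edgeR adjusted p = 9.42e-04). It was past the threshold in all 15 other fits. Per transcript length *Abca1* was 3.04 ± 0.268 times the level of *Scarb1* in control and 1.08 ± 0.172 times in Acly M-KO libraries (SD, n = 3 each). This ratio depended on the length used: over all annotated exon bases *Abca1* was at 147.7 and *Scarb1* at 14.6 RPKM in control, and at 79.5 and 22.1 RPKM in Acly M-KO libraries, and with the counts of all transcripts of a gene added up, which counts shared reads several times, *Abca1* was at 149 and *Scarb1* at 126 RPKM in control and at 80.2 and 190.7 RPKM in Acly M-KO libraries. Which of the pair is higher without Acly is therefore not settled by these counts.

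*Lpcat3* (NM_145130, chromosome 6, 124663094 to 124704716) encodes the lysophospholipid acyltransferase that puts polyunsaturated fatty acids into membrane phospholipids. Its levels were 71.6, 75.9 and 70.2 CPM in control and 85.9, 86.4 and 95.6 CPM in Acly M-KO libraries. The groups did not overlap, but the gap was small, and *Lpcat3* had the smallest change of the 7 genes past the threshold. The log2 fold change was 0.30 (SE 0.075, 95% interval 0.13 to 0.46, edgeR adjusted p = 0.0237). The adjusted p rose to 0.111, 0.0639 and 0.126 without control replicates 1, 2 and 3 and to 0.0776 without Acly M-KO replicate 3, so this call needed each of those libraries. Over all 15 other fits it ranged from 0.00187 to 0.126. A stretch of 334 of its 3268 exon bases (10.2%) is shared with *Emg1* on the opposite strand. *Emg1* was at 23.6 to 24.7 CPM in control and 25.4 to 26.8 CPM in Acly M-KO libraries and did not pass (log2 fold change 0.11).

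Acly M-KO replicate 2, the deepest library, was the lowest of the 3 Acly M-KO libraries in 8 of the 10 genes, against 38.2% of all tested genes. The values of the 7 called genes without it were -0.92 for *Abca1*, -0.72 for *Abcg1*, -0.86 for *Apoe*, -0.53 for *Mylip*, -0.42 for *Pltp*, 0.32 for *Lpcat3* and 0.64 for *Scarb1* on the log2 scale. All 7 still passed, and in none did the remaining libraries of the groups overlap. Thinning its counts to 11753101 gave the same 7 calls.

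Levels of the 10 genes were set beside one another per transcript length, as RPKM (counts scaled to library depth and to kilobases of the gene's longest matched GENCODE transcript). The place of *Apoe* among all tested genes and the most abundant genes of the lists below go by mean CPM, which is not scaled to length. In control, the order was *Apoe* (2433 RPKM), *Pltp* (730.5), *Abca1* (149), *Abcg1* (67.8), *Scarb1* (49.1), *Nr1h2* (37.7), *Lpcat3* (31.4), *Mylip* (28.4), *Rxra* (26.4) and *Nr1h3* (6.47 RPKM). The library ranges of *Lpcat3* and *Mylip* overlapped, as did those of *Mylip* and *Rxra*, and the other neighbours were apart. In Acly M-KO macrophages, *Apoe* (1245 RPKM), *Pltp* (499.4) and *Abca1* (80.2) still led. *Scarb1* (74.6 RPKM) now came before *Abcg1* (40.6), with a range that overlapped that of *Abca1*, and *Nr1h3* (5.51 RPKM) stayed last. The order depended on how the level was computed. Over all bases of the annotated exons, *Scarb1* came at place 9 of 10 in control and at place 7 in Acly M-KO macrophages, where it was below *Abcg1* (32.4 RPKM) and apart from *Abca1*. In control, *Mylip* and *Rxra* then moved up to places 5 and 6, and *Nr1h2* and *Lpcat3* down to places 7 and 8, while *Apoe*, *Pltp* and *Abca1* kept the first 3 places. With the counts of all transcripts of a gene added up, *Apoe* (4 transcripts) rose to 9664 RPKM in control, and *Nr1h2* (4 transcripts) stood at 149.8 beside 149 RPKM for *Abca1*. In Acly M-KO macrophages *Scarb1* (190.7) and *Nr1h2* (151.4) then stood above *Abca1* (80.2 RPKM).

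**Figure D3:**
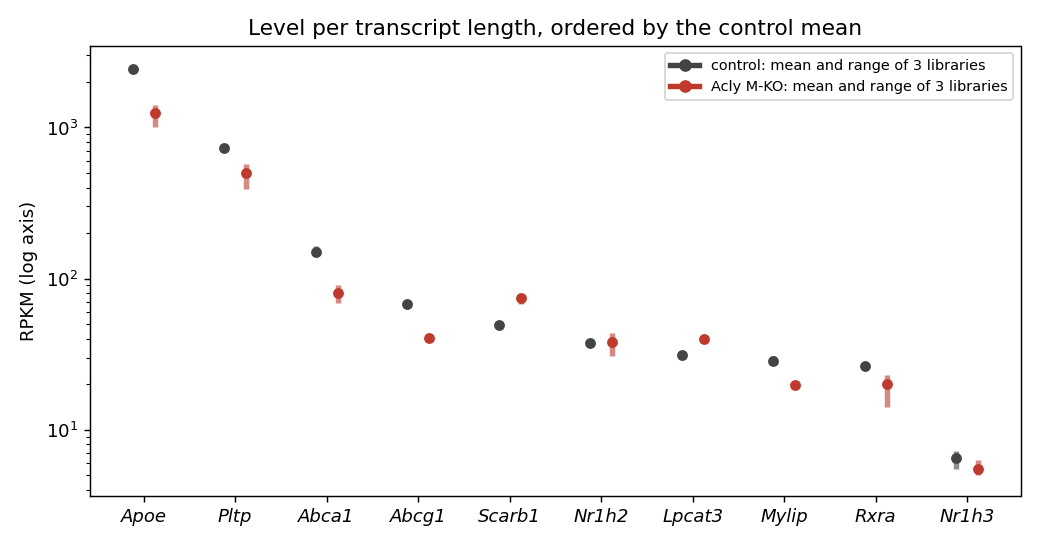
Level per transcript length in RPKM on a log axis, with the genes ordered by their control mean. Points are means and bars the range of the 3 libraries of a group, in grey for control and red for Acly M-KO. *Apoe* leads in both groups at 2433 and 1245 RPKM, and *Nr1h3* is lowest at 6.47 and 5.51 RPKM.

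The deposited table lists 21 RefSeq transcripts of the 10 genes. Counted one by one, 8 were lower and 4 were higher (12.9% of all transcripts tested passed in either direction). Reads on shared exons enter several of them, so they are not independent. The 4 *Apoe* transcripts fell by 1.0 each on the log2 scale. Of the 3 *Scarb1* transcripts, NM_001205083 had 804, 1088 and 825 counts in control libraries and 1319, 2734 and 1333 in Acly M-KO libraries, fewer than the other two, and its log2 fold change of 0.55 was close to the 0.57 of NM_016741. The 3 *Rxra* transcripts had log2 fold changes of -0.45 each and did not pass (edgeR adjusted p between 0.0711 and 0.0722).

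Across the 6 libraries, the log2 CPM of *Abcg1* followed that of *Abca1* most closely among the members (Pearson's r = 0.959), followed by *Apoe* (0.901), *Mylip* (0.890) and *Pltp* (0.849). *Lpcat3* (-0.974) and *Scarb1* (-0.940) ran opposite to it. The receptor genes were at 0.657 (*Rxra*), 0.546 (*Nr1h3*) and 0.0231 (*Nr1h2*). Genes outside the group that were among the most like *Abca1* were *Itch* (0.999) and *Gpr35* (0.994), with log2 fold changes of -0.24 and -1.35. These coefficients rest on 6 libraries that fall into the 2 genotypes, and are given as a description.

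Other genes of the LXR pathway moved in both directions. Of 18 further known targets, 16 were tested, 8 were lower and 3 were higher (68.8% called, against 12.3% of all tested genes), with a median log2 fold change of -0.21. The 3 that were higher are genes of fatty acid synthesis and desaturation: *Scd1* (2.38, edgeR adjusted p = 6.40e-08), *Fasn* (1.73) and *Scd2* (1.43). Of the lower ones, *Il18bp*, which encodes a decoy for interleukin-18, fell by 1.3 on the log2 scale. *Mertk*, an uptake receptor for apoptotic cells that is also among the macrophage markers above, changed by -0.67. *Lpl* (0.31), the lipoprotein lipase gene, and *Npc2* (-0.20), a lysosomal cholesterol carrier gene, were the most abundant of those that missed the threshold. The number of lower targets was 4 without control replicate 1 or 3, 5 without control replicate 2 and 8 without Acly M-KO replicate 2.

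Of 23 receptor partners and co-regulators, including RXRs, co-repressors and co-activators, 19 were tested and 0 passed in either direction in edgeR, against 12.3% of all tested genes, with a median of -0.12. At an unadjusted p of at most 0.05, 5 were lower and 1 was higher, where 13.3% of all tested genes were lower and 13.9% higher. DESeq2 called 0 (5.23% of its genes lower, 6.02% higher), and limma-voom with sample weights called 3 lower and 0 higher (9.39% of all genes lower, 9.68% higher). Without Acly M-KO replicate 1, and likewise without replicate 2, 2 were lower. The most abundant were the co-activator gene *Ncoa3* (-0.13) and the co-repressor gene *Ncor1* (-0.12). *Rxrg* and *Nr1h4* were at 0 counts in all 6 libraries.

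Among the relatives of the efflux genes, the share past the threshold was near the 12.3% of all tested genes. Of 17 other ABCA and ABCG transporter genes, 9 were tested (11.1% called) and 1 was lower, *Abcg3* (-0.62, edgeR adjusted p = 0.00198), and 0 were higher. Their median was -0.21, and *Abca3* (-0.21) and *Abca2* (0.01) were the most abundant without a call. The number of lower genes was 3 without Acly M-KO replicate 1 and 2 without replicate 2, and without the latter 1 was higher. At an unadjusted p of at most 0.05 in edgeR, 5 of the 9 tested transporter genes were lower and 0 were higher. Of all tested genes, 13.3% were lower and 13.9% higher at that p. Of 19 apolipoproteins and lipoprotein enzymes, 7 were tested (14.3% called) and 1 was higher, the endothelial lipase gene *Lipg*, which rose from 9 to 12 counts per control library to 39 to 187 per Acly M-KO library (log2 fold change 2.45, edgeR adjusted p = 0.00143). *Psap* (-0.28) and *Lpl* were the most abundant of that list, none was lower, and the counts became 1 lower and 2 higher without Acly M-KO replicate 1 and 1 lower without replicate 2.

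Among 15 lysophospholipid acyltransferases, the enzyme class of *Lpcat3*, 13 were tested, and 1 was lower, *Lpcat2* (-0.58, edgeR adjusted p = 0.0109), with 0 higher and a median of -0.04, and the 1 lower gene is 7.69% of the list against 5.65% lower among all tested genes. *Lpcat2*, which is known to take part in making platelet-activating factor, went opposite to *Lpcat3* and missed the threshold without control replicate 1 (adjusted p = 0.0629 in edgeR), and 1 gene was higher without Acly M-KO replicate 2. *Lpgat1* (-0.07) and *Agpat3* (-0.02) were the most abundant of the others. Of 18 lipoprotein and scavenger receptors and their helpers, the class of *Scarb1* and of the targets of *Mylip*, 17 were tested, 5 were lower and 2 were higher (41.2% called, against 12.3% of all tested genes), with a median of -0.01. The apolipoprotein E receptor gene *Lrp8* (1.5, edgeR adjusted p = 1.01e-04) and the fatty acid uptake gene *Cd36* (0.67) were higher, and *Scarb2* (-0.60), *Cxcl16* (-0.52), *Stab2* (-0.43), *Scarf1* (-0.57) and *Lrp1* (-0.51) were lower. *Lrp1* overlapped between the groups, and *Stab1* (-0.01) and *Cd68* had no call. The number lower was 3 without control replicate 1 and 2 without control replicate 2 or 3.

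**Figure D4:**
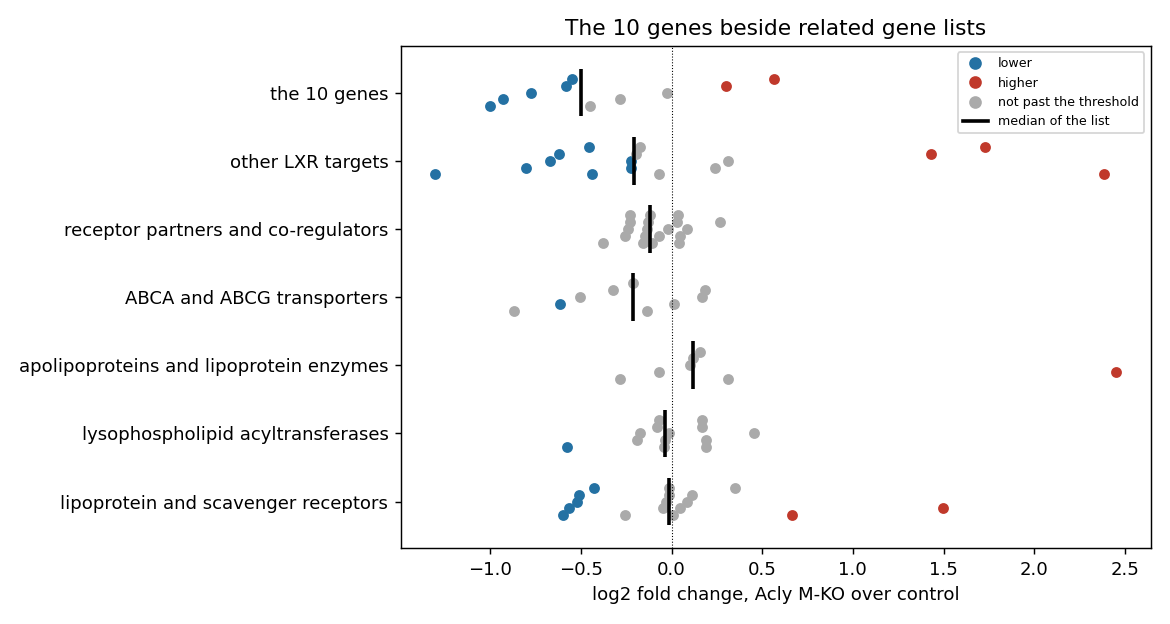
Log2 fold change (x axis) of every tested gene of the 10 members and of 6 related lists, with blue for lower, red for higher and grey for not past the threshold, and a black line at the median of each list. The members have the lowest median, -0.50, and all co-regulators are grey.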

How the data were processed

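RNA of 3 control and 3 Acly M-KO macrophage cultures was measured by RNA-seq. The authors made strand-specific mRNA libraries, aligned reads to mm10 with STAR 2.5.2b (submitters' notes also name CASAVA 1.8.2), filtered the alignments by mapping quality, and summed reads per RefSeq transcript with HOMER. The deposited values are these raw counts, neither normalized nor pooled. The table has 12 columns of values, of which 6 match no sample here and were not used.

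Transcripts (35745) were given symbols from a RefSeq gene table or GENCODE M21, and the one with the highest total represented each gene, so a gene's reads on other transcripts are not added. edgeR 4.0.16 in R 4.3.3 compared the genotypes, with no other term, by its quasi-likelihood test after TMM scaling and filterByExpr, and p-values were adjusted by Benjamini-Hochberg over 11470 genes. The fit was tested on simulated counts first. Intervals cover the spread between libraries, and the biological coefficient of variation was 8.90%. The table has no transcript lengths, so RPKM used GENCODE M21 lengths matched by accession.

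The 10 genes, the lists and the tests were chosen with earlier results of these data known. Named genes are all members, and per list up to 4 past the threshold with the smallest adjusted p, the 2 most abundant without a call, and genes that a count of 5 or fewer covers (list or marker counts). Genes whose exons overlap a member's are named beside it. Alternatives were DESeq2 1.42.0, RLE size factors, library totals, other filters, limma-voom (limma 3.58.1) with sample weights, a replicate block, thinning, summed transcripts, each library left out, and other thresholds. RPKM over all exon bases was added after seeing the data. Withheld items are counted in the list totals but not reported singly. The stimulated macrophages and other assays of the study were not analysed here.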

Additional observations from a re-analysis of the deposited data

How the results depend on the processing

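*Abca1*, *Abcg1*, *Apoe*, *Mylip*, *Pltp* and *Scarb1* kept their direction and stayed past 0.05 in all 15 other fits. With a log2 fold change of 1 or more in size required, 1 member was lower and 0 were higher, and at a threshold of 0.01 1 was higher. The number of members higher was between 1 and 2 with a library left out. The direction of *Nr1h2* turned with library totals alone (0.0083), with limma-voom (0.10) and in 2 of the 6 fits that left out a library (-0.15 to 0.13), and the cause was not tested. Over all genes, 648 were lower, but 1077 with limma-voom, 214 at 0.01, 49 with the fold limit and 235 to 1031 with a library left out (235, 282 and 244 without control replicates 1, 2 and 3, 424 without Acly M-KO replicate 3, 1031 without replicate 2), and 768 were higher, but 343 at 0.01, 149 with the fold limit and 363 to 1105 with a library left out. Every fit that left out a library had fewer samples, and the cause of the differences between these fits was not tested.

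For the lists, the lower counts with a library left out were 4 to 8 for LXR targets, 0 to 2 for co-regulators, 1 to 3 for transporters, 0 to 1 for apolipoproteins, 0 to 1 for acyltransferases and 2 to 5 for receptors. The higher counts were 0 to 1 for transporters and acyltransferases and 1 to 2 for apolipoproteins. At 0.01, 4 LXR targets, 0 acyltransferases and 2 receptors were lower. With the fold limit, 1 LXR target, 0 transporters, 0 acyltransferases and 0 receptors were lower and 1 receptor was higher. Limma-voom gave 3 co-regulators, 2 transporters and 1 apolipoprotein gene lower and 1 transporter higher. Of the apolipoproteins, 1 was lower with DESeq2 and without a filter, 2 were higher without a filter, and 0 were higher with at least 10 counts in every library, where *Lipg* was not tested. A DR4 was in 0.250% of promoters at 1 mismatch and in 21.9% at 3, where 2 members held one.

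Same-numbered libraries did not deviate together (r = 0.0937, 0.120 and -0.0533), so by this measure the shared numbers were not taken to pair them, although Acly M-KO replicates 1 and 2, unlike replicate 3, correlated best with the control of their own number. The fit with a replicate block had *Rxra* past the threshold (edgeR adjusted p = 0.0209) and gave 1 apolipoprotein gene lower and 2 higher, and moved no other member's call, with 721 genes lower and 862 higher in all. *Nr1h3* had 117 to 252 counts per library, and how far this limited the changes that could be seen was not tested. Its standard error was 0.148, beside 0.155 for *Rxra* and 0.120 for *Nr1h2*, which had more counts.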
